A study of Homo sapiens with 24 samples.

Results

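The genes described here code for glucose uptake, glycolysis, lactate formation and export, the kinases that control these steps, and the pentose phosphate pathway, in AGS, a cell line from a human gastric adenocarcinoma. They are the 35 rows of the count table, out of 23368 genes, whose symbol was on a list drawn up by step, with the pyruvate kinase row under its older symbol PKM2. Of the 35 genes, 33 had enough counts to be tested among 13947 genes. The enolase gene ENO2 reached no more than 0.1 CPM in any library, and the pyruvate dehydrogenase kinase gene PDK4 had 0 counts in all 24. Neither was among the 33, and ENO2 was tested only within a ratio to ENO1.

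RNA sequencing was done on 6 groups of wild-type AGS cells with 4 biological replicates each, harvested after 24 h of exposure. Control cells received no inhibitor. Single agents were 0.7 µM of the PI3 kinase and mTOR inhibitor PI103, 0.035 µM of the MEK inhibitor PD0325901, and 0.5 µM of (5Z)-7-oxozeaenol, which inhibits TAK1 and is named oxozeaenol below. The combinations, written PI103+oxozeaenol and PI103+PD0325901, held each agent at 50% of the concentration used alone. Whether the control received vehicle is not in the labels, which give the replicate number as the batch.

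Glucose enters cells through facilitative transporters and is trapped by hexokinase as glucose 6-phosphate. Glycolysis turns it into pyruvate, which lactate dehydrogenase reduces to lactate for export through monocarboxylate transporters, or which enters mitochondria through pyruvate dehydrogenase unless pyruvate dehydrogenase kinases (PDK) switch that complex off. The pentose phosphate pathway branches from glucose 6-phosphate and yields NADPH and ribose 5-phosphate. PI3 kinase, mTOR, MYC and hypoxia-inducible factors are known inducers of many of these genes in cancer cells.

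Libraries held 38.1 M to 84.2 M gene counts. The summed level of 6 epithelial markers was 4620 to 7530 CPM (counts-per-million of the scaled library size), that of 4 leukocyte markers at most 0.14 CPM and that of 3 endothelial markers at most 0.437 CPM. The summed level of 5 fibroblast genes ranged from 8.14 to 9.93 CPM with oxozeaenol, over 14 to 17.1 CPM in control, to 32.2 to 34.2 CPM with PI103. Nearly all of this was COL1A1 (means of 8.69, 14.8 and 33 CPM), while COL1A2 and DCN reached at most 0.0171 and 0.0176 CPM, LUM 0.292 CPM and COL3A1 1.1 CPM in any library. In bulk RNA, fewer cells that express a gene and less of its RNA per cell cannot be told apart.

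The glucose metabolism genes together took a smaller share of all gene counts in treated than in control cells. Their share was 1.61% ± 0.0787 in control, 1.43% ± 0.0905 with PI103, 1.34% ± 0.0753 with PD0325901 and 1.28% ± 0.153 with oxozeaenol (SD, n = 4 each). The combinations were at 1.24% ± 0.0951 (PI103+oxozeaenol) and 1.12% ± 0.0674 (PI103+PD0325901). The lowest control library (1.53%) lay above every library of the other treatments except PI103, whose highest library held 1.55%. Such a share weights abundant genes most. Per kilobase of exon, GAPDH was highest in control at 892 CPM, followed by SLC2A1 at 307, ENO1 at 277, PGAM1 at 275 and PKM2 at 270, while HK1 was at 0.943 and PFKFB4 at 0.462 CPM per kilobase.

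Each treatment was compared with control by edgeR's quasi-likelihood test, and a gene is called at an adjusted p under 0.05. With PI103, 6 of the 33 tested genes were called higher and 14 lower, where 26.2% of all genes tested were called higher and 25.2% lower. PD0325901 gave 9 higher and 16 lower against 28.7% and 29.9% of all genes. Oxozeaenol gave 7 higher and 13 lower against 25.7% and 26.1%. With PI103+oxozeaenol 4 were higher and 17 lower, against 27.7% and 27.9% of all genes. With PI103+PD0325901 7 were higher and 21 lower, against 32.2% and 32.6%. The share of members called lower thus exceeded the background in every treatment, from 39.4% of 33 with oxozeaenol to 63.6% with PI103+PD0325901. The share of members called higher was near the background with PD0325901 (27.3%) and oxozeaenol (21.2%). It lay further below the background with PI103 (18.2%), PI103+oxozeaenol (12.1%) and PI103+PD0325901 (21.2%). The median log2 fold change over the tested members was -0.14, -0.13, -0.20, -0.24 and -0.33 in the order of the groups above, beside 0.02, -0.02, 0.02, 0.02 and 0.01 over all genes tested. All 5 comparisons share the 4 control libraries.

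Called lower in all 5 treatments were the transporter genes SLC2A1 and SLC2A3, the hexokinase gene HK2, GAPDH, the lactate dehydrogenase gene LDHA and PFKFB2. Called higher in all 5 were PFKL, PFKFB4, PDK2 and H6PD. How many of all genes tested were called the same way in all 5 was not counted. These lists therefore name genes and do not set the members apart from other genes. PFKP and ALDOC were called in opposite directions under different treatments, and the lactonase gene PGLS was called in none. The heat map of fold changes shows these groups side by side.

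**Figure D1:**
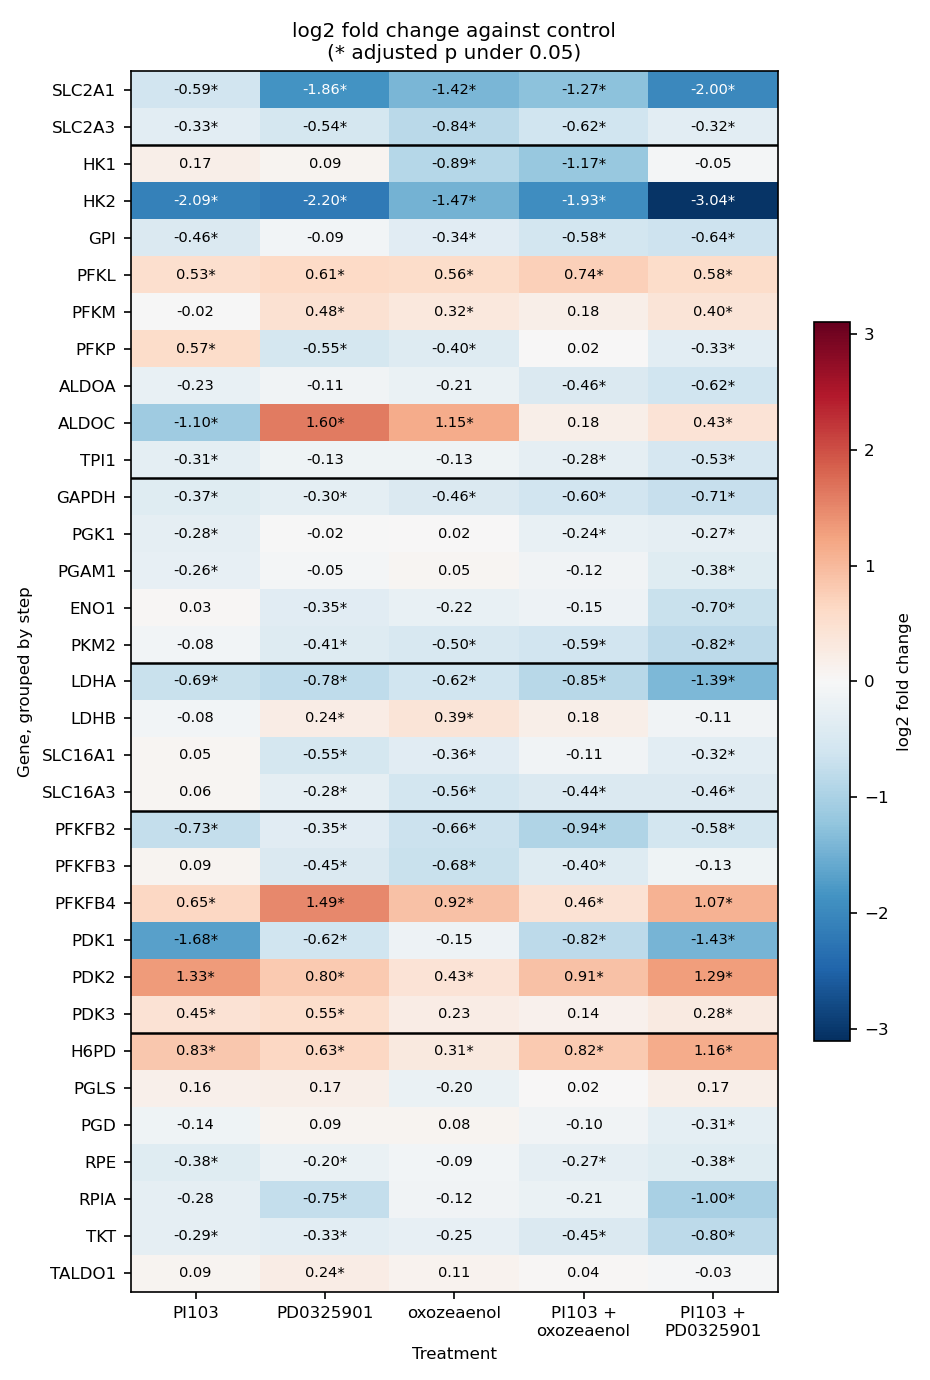
Heat map of log2 fold changes against control for the 33 tested genes (rows, separated by step) in 5 treatments (columns). Values are from edgeR with 4 libraries per group, and an asterisk marks an adjusted p under 0.05. HK2 is the darkest blue row, reaching -3.04 with PI103+PD0325901, and ALDOC turns from -1.10 with PI103 to 1.60 with PD0325901.

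Promoter sequence is shown for 3 genes because HK2 and LDHA fell in every treatment while ALDOC, of the same pathway, fell with PI103 and rose with PD0325901 and oxozeaenol. Each line gives the 250 bases before the annotated start in the RefSeq table of GRCh38.p14, 5′ to 3′ on the gene's strand. HK2 lies at chr2:74833877-74834126 (plus strand), LDHA at chr11:18394313-18394562 (plus strand) and ALDOC at chr17:28576896-28577145 (minus strand). Capitals mark the E-box core CACGTG and the hypoxia response element cores ACGTG and GCGTG on either strand, so that CACGT and CACGC are cores on the opposite strand.
HK2: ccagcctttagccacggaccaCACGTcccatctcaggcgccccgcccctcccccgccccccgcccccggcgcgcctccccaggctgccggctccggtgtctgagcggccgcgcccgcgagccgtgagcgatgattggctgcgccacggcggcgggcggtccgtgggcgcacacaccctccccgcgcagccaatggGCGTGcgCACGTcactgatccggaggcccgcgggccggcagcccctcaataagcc
LDHA: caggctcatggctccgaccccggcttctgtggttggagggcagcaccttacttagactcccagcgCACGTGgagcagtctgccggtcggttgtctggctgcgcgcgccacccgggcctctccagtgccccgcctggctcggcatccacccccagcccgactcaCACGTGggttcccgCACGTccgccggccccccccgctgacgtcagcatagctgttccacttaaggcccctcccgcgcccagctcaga
ALDOC: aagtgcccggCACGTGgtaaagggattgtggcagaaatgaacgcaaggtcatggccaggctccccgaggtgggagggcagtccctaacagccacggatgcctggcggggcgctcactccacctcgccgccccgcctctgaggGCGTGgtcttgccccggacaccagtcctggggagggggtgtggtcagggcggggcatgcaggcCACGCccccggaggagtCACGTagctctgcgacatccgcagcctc
In LDHA, E-box cores stood at -185 to -180 and at -87 to -82 from the start, with another ACGTG core at -73 to -69. A GCGTG core of LDHA lay past the start, at 38 to 42, outside the printed bases. HK2 had ACGTG cores at -229 to -225 and -48 to -44 and a GCGTG core at -55 to -51, but no CACGTG. ALDOC had an E-box core at -240 to -235, an ACGTG core at -28 to -24 and GCGTG cores at -108 to -104 and -45 to -41. Windows of 300 bases, reaching 50 bases past the start, were in the table for 32 of the 35 genes. CACGTG, which contains ACGTG on both strands, was in 3 of these 32 (9.38%), the third being GAPDH, and in 7.43% of 27305 promoters. ACGTG was in 10 (31.2%) beside 21.6% of all promoters, and GCGTG in 14 (43.8%) beside 36.3%. TGATGNAA, the core that ATF4 and CEBP proteins bind, was in 1 (HK1, 3.12%) beside 3.67%. The 3 genes shown held more of these cores than the other genes given library by library. SLC2A1, which also fell in every treatment, had only a GCGTG core at 25 to 29 from the start, outside the printed bases. PFKFB4 and RPIA had 1 GCGTG core each, and PDK1, PDK2 and H6PD had no match to any core. These are matches of letters in 1 window per gene, and the difference between the shares of members and of all promoters was not tested.

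Both glucose transporter genes fell in every treatment. SLC2A1 codes for GLUT1, the main basal glucose transporter of proliferating cells. Its 4 control libraries held 1540, 1440, 1210 and 1610 CPM in replicate order, those with PI103 1060, 983, 914 and 908, and those with PD0325901 494, 302, 410 and 392. Oxozeaenol libraries held 646, 623, 505 and 385 CPM, PI103+oxozeaenol libraries 654, 639, 559 and 549, and PI103+PD0325901 libraries 439, 303, 347 and 359. No treated library reached the lowest control library, and the PI103 libraries lay between control and all others. The log2 fold change was -0.59 ± 0.146 (SE, adjusted p = 0.00156) with PI103, -1.86 ± 0.15 (SE, adjusted p = 1.14e-10) with PD0325901 and -1.42 ± 0.149 (SE, adjusted p = 1.64e-08) under oxozeaenol. The combinations gave -1.27 with oxozeaenol and -2.00 with PD0325901. SLC2A3 codes for GLUT3, a transporter with high affinity for glucose. It went from 1290 ± 89.7 CPM in control (mean ± SD, n = 4) to 717 ± 107 with oxozeaenol, its largest fall (-0.84 ± 0.0974 (SE, adjusted p = 8.31e-08)). PI103 (-0.33) and PI103+PD0325901 (-0.32) gave its smallest falls, and all of its treated libraries lay below control as well.

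**Figure D2:**
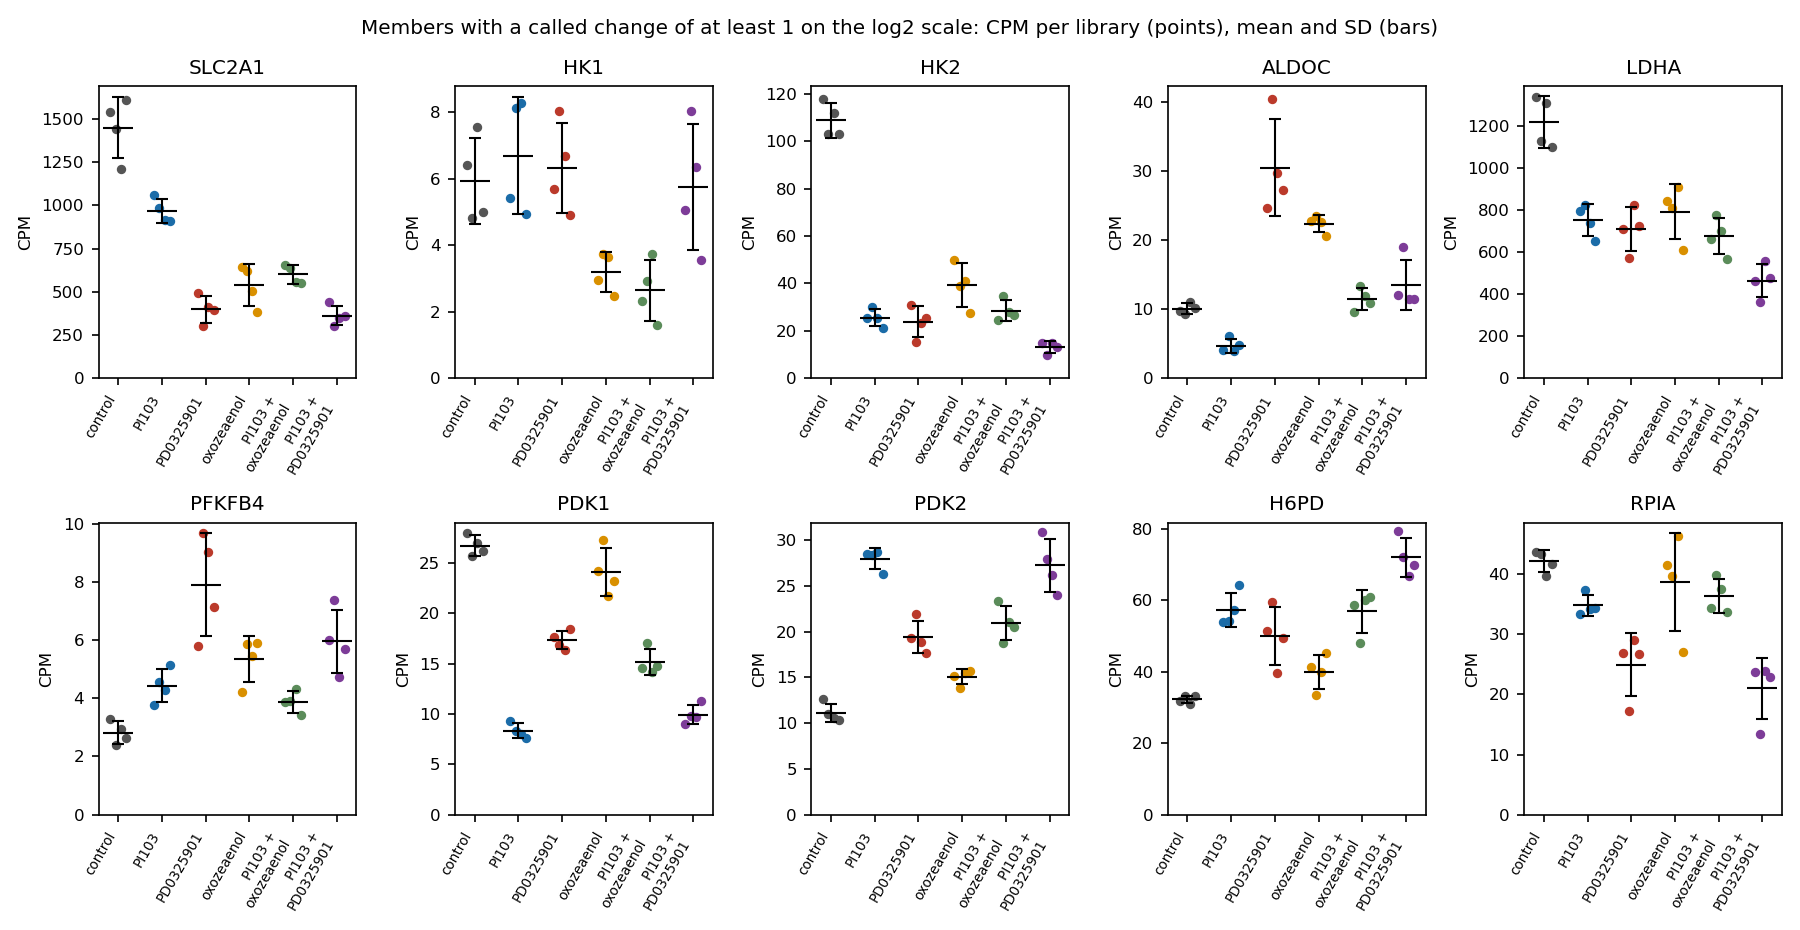
CPM per library (points, 4 per group), with the mean and SD (bars), for the 10 genes that had a called log2 fold change of at least 1 in size. SLC2A1, HK2 and LDHA lie below control in all treated libraries, PFKFB4, PDK2 and H6PD above it, and ALDOC on both sides.

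Among the upper steps of glycolysis the hexokinase gene HK2 showed the largest change of any member. HK2 codes for a hexokinase that binds mitochondria and is induced in many tumours. Its control libraries held 118, 103, 112 and 103 CPM, PI103 libraries 25.3, 30, 25.5 and 21.3 and PD0325901 libraries 31, 15.3, 23.3 and 25.5. Oxozeaenol libraries held 50, 38.8, 41 and 27.6 CPM, PI103+oxozeaenol libraries 24.7, 34.7, 28.1 and 26.6, and PI103+PD0325901 libraries 14.8, 9.83, 14.9 and 13.3. Treated libraries held at most 50 CPM and control libraries at least 103, and the 4 libraries with PI103+PD0325901 were the lowest of all 24. The log2 fold change was -2.09 ± 0.182 (SE, adjusted p = 1.6e-09) with PI103, -2.20 ± 0.183 (SE, adjusted p = 4.65e-10) with PD0325901, -1.47 ± 0.178 (SE, adjusted p = 3.16e-07) under oxozeaenol, -1.93 ± 0.181 (SE, adjusted p = 4e-09) with PI103+oxozeaenol, and -3.04 ± 0.19 (SE, adjusted p = 2.58e-12) with PI103+PD0325901.

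HK1, the housekeeping hexokinase, was scarce and was called lower in the groups with oxozeaenol. Control libraries held 6.41, 4.81, 7.55 and 5 CPM, PI103 libraries 5.43, 8.13, 8.28 and 4.93, and PD0325901 libraries 5.7, 8.04, 6.68 and 4.9. Oxozeaenol libraries held 2.96, 3.74, 3.66 and 2.47 CPM, PI103+oxozeaenol libraries 2.32, 2.94, 3.75 and 1.59, and PI103+PD0325901 libraries 5.07, 8.03, 6.35 and 3.56. All 8 libraries with oxozeaenol lay below all control libraries, and the other groups overlapped control. HK1 fell by 0.89 on the log2 scale with oxozeaenol (SE 0.252, adjusted p = 0.00471) and by 1.17 with PI103+oxozeaenol (SE 0.254, adjusted p = 0.000407). Its values were 0.17 ± 0.244 (SE, adjusted p = 0.586) with PI103, 0.09 ± 0.244 (SE, adjusted p = 0.775) with PD0325901 and -0.05 ± 0.244 (SE, adjusted p = 0.876) with PI103+PD0325901. HK1 differed between oxozeaenol and PI103 (PI103 higher by 1.06) and between oxozeaenol and PD0325901 (-0.98) in direct tests, with adjusted p of 0.00158 and 0.00569.

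GPI, which interconverts glucose and fructose 6-phosphate, fell in 4 of 5 treatments, most with PI103+PD0325901 (-0.64 ± 0.117 (SE, adjusted p = 3.17e-05)), and its value with PD0325901 alone was -0.09 (adjusted p = 0.521). Its fall with oxozeaenol (-0.34) was lost without control replicate 1 or without oxozeaenol replicate 2 or 4, at adjusted p up to 0.0807. The genes for the subunits of phosphofructokinase, which commits sugar to glycolysis, separated. PFKL, the liver-type subunit, rose in all treatments by 0.53 to 0.74, from 94.9 ± 6.29 CPM in control to 159 ± 4.83 with PI103+oxozeaenol. PFKM, the muscle type, rose with PD0325901 (0.48), oxozeaenol (0.32) and PI103+PD0325901 (0.40). PFKP, the platelet type, rose with PI103 (0.57 ± 0.118 (SE, adjusted p = 0.000241)) and fell with PD0325901 (-0.55 ± 0.118 (SE, adjusted p = 0.000274)) and oxozeaenol (-0.40 ± 0.118 (SE, adjusted p = 0.00632)), and the groups did not overlap control in any of these cases. With PI103+PD0325901 PFKP fell by 0.33, a call lost without replicate 2 of that group (adjusted p = 0.0808), and with PI103+oxozeaenol it stood at 0.02.

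Aldolase splits fructose 1,6-bisphosphate, and ALDOC codes for its brain-type form. In control the ALDOC libraries held 9.75, 9.24, 11.1 and 10.1 CPM, with PI103 4.07, 6.05, 3.87 and 4.77 and with PD0325901 24.6, 40.5, 29.7 and 27.3. Oxozeaenol libraries held 22.8, 23.5, 22.6 and 20.6 CPM, PI103+oxozeaenol libraries 9.55, 13.4, 11.9 and 10.9, and PI103+PD0325901 libraries 12.1, 19, 11.5 and 11.5. PI103 libraries all lay below control, and the single-agent libraries of PD0325901 and oxozeaenol all lay above 20 CPM, clear of every other group. The log2 fold change was -1.10 ± 0.167 (SE, adjusted p = 5.63e-06) with PI103, 1.60 ± 0.162 (SE, adjusted p = 7.09e-09) with PD0325901 and 1.15 ± 0.161 (SE, adjusted p = 1.78e-06) under oxozeaenol. PI103+oxozeaenol gave 0.18 ± 0.161 (SE, adjusted p = 0.346), its libraries overlapping control. The rise with PI103+PD0325901 (0.43) was lost without control replicate 1 or 2 or without replicate 2 of the combination, the last giving an adjusted p of 0.201. ALDOA, the abundant form, was called only in the combinations (-0.46 and -0.62). With the batch number as a block its fall was also called with PI103 (adjusted p = 0.0187) and oxozeaenol (adjusted p = 0.0229). Other annotated genes cover 42.3% of its exon bases on the same strand, so its counts are uncertain. TPI1, which interconverts the triose phosphates, fell with PI103 (-0.31) and both combinations (-0.28 and -0.53). Its fall with PI103+oxozeaenol was lost without replicate 4 of that group (adjusted p = 0.0677).

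None of the 5 tested genes of lower glycolysis was called higher in any treatment against control, beside 25.7% to 32.2% of all genes tested. GAPDH, which forms 1,3-bisphosphoglycerate, fell from 2660 ± 201 CPM in control to 2060 ± 129 with PI103, 2160 ± 168 with PD0325901, 1930 ± 234 under oxozeaenol, 1760 ± 126 with PI103+oxozeaenol and 1620 ± 84.3 with PI103+PD0325901. All treated libraries lay below the control libraries, and the log2 fold changes ran from -0.30 to -0.71. GAPDH has 62 pseudogenes named for it in GENCODE 29. Reads without a unique alignment were tallied apart from the genes (4.64% to 6.06% of reads). How many of them came from GAPDH is not known, so its counts are uncertain. PKM2, the row of pyruvate kinase, which makes pyruvate and ATP, fell in all treatments except PI103 (-0.08, adjusted p = 0.524), most with PI103+PD0325901 (-0.82 ± 0.102 (SE, adjusted p = 1.29e-07)). ENO1, an enolase, fell by 0.70 with PI103+PD0325901 (SE 0.13, adjusted p = 4.42e-05). Its fall with PD0325901 alone (-0.35) was lost in 5 of 8 fits that left out 1 library (control replicate 1 or 3, PD0325901 replicate 1, 2 or 4), at adjusted p up to 0.118. PGK1 and PGAM1, a kinase and a mutase of phosphoglycerate, were called lower with PI103 and not with PD0325901 or oxozeaenol alone. PGK1 was at -0.28 with PI103, -0.24 with PI103+oxozeaenol and -0.27 with PI103+PD0325901, and PGAM1 at -0.26 with PI103 and -0.38 with PI103+PD0325901. The PGAM1 call with PI103 was lost without control replicate 1 or 4 or PI103 replicate 1, 3 or 4, at adjusted p up to 0.105. That of PGK1 with PI103+oxozeaenol was lost without control replicate 2 or 4 or replicate 1 or 4 of the group (up to 0.0824), and that with PI103+PD0325901 without its replicate 1 (0.0779).

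LDHA, which reduces pyruvate to lactate, fell in every treatment. Control libraries of LDHA held 1340, 1130, 1310 and 1100 CPM, PI103 libraries 797, 824, 740 and 655, and PD0325901 libraries 710, 574, 827 and 725. Oxozeaenol libraries held 844, 810, 911 and 609 CPM, PI103+oxozeaenol libraries 662, 777, 699 and 569, and PI103+PD0325901 libraries 462, 363, 556 and 479. Treated and control libraries did not overlap, and the 4 libraries with PI103+PD0325901 lay below all others. The log2 fold change was -0.69 ± 0.134 (SE, adjusted p = 0.000121) with PI103, -0.78 ± 0.135 (SE, adjusted p = 2.04e-05) with PD0325901, -0.62 ± 0.134 (SE, adjusted p = 0.000426) under oxozeaenol, -0.85 ± 0.135 (SE, adjusted p = 7.96e-06) with PI103+oxozeaenol and -1.39 ± 0.136 (SE, adjusted p = 2.1e-09) with PI103+PD0325901. LDHB, the subunit that favours lactate oxidation, rose with oxozeaenol (0.39 ± 0.0965 (SE, adjusted p = 0.00132)). Its rise with PD0325901 (0.24) was lost without control replicate 2 or 4 or PD0325901 replicate 3 or 4, at adjusted p up to 0.177. For LDHB, 33.4% of exon bases lie under another gene on the same strand.

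The monocarboxylate transporter genes SLC16A1 (MCT1) and SLC16A3 (MCT4, the exporter of glycolytic cells) were not called with PI103, at 0.05 and 0.06. SLC16A1 fell with PD0325901 (-0.55), oxozeaenol (-0.36) and PI103+PD0325901 (-0.32). SLC16A3 fell with oxozeaenol (-0.56) and both combinations (-0.44 and -0.46). Its fall with PD0325901 (-0.28) was lost without control replicate 1 or 4 or PD0325901 replicate 1, 2 or 4, at adjusted p up to 0.0791.

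The genes that set the pace of glycolysis and of pyruvate entry did not move as a block. PFKFB enzymes make and break fructose 2,6-bisphosphate, the activator of phosphofructokinase. PFKFB4 libraries held 3.3, 2.38, 2.96 and 2.65 CPM in control, 3.77, 4.56, 4.27 and 5.15 with PI103 and 5.81, 9.68, 9.02 and 7.13 with PD0325901. With oxozeaenol they held 4.21, 5.86, 5.45 and 5.89 CPM, with PI103+oxozeaenol 3.88, 3.91, 4.32 and 3.41, and with PI103+PD0325901 6.02, 7.37, 4.75 and 5.7. The highest control library, 3.3 CPM, was below every treated library. PFKFB4 rose by 0.65 with PI103, 1.49 with PD0325901 (SE 0.164, adjusted p = 2.35e-08), 0.92 with oxozeaenol and 1.07 with PI103+PD0325901. Its rise with PI103+oxozeaenol (0.46) was lost without control replicate 2 or 4 or replicate 3 of the group, at adjusted p up to 0.0708. PFKFB2 fell in all 5 treatments, from 77.6 ± 5.24 CPM to 40.5 ± 1.51 with PI103+oxozeaenol (-0.94 ± 0.0837 (SE, adjusted p = 8.02e-10)). PFKFB3 fell with PD0325901 (-0.45), oxozeaenol (-0.68) and PI103+oxozeaenol (-0.40), and stood at 0.09 with PI103 and -0.13 with PI103+PD0325901.

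PDK1 and PDK2, kinases that inactivate pyruvate dehydrogenase, moved in opposite directions. For PDK1, control libraries held 28, 25.7, 27 and 26.2 CPM, PI103 libraries 9.35, 8.31, 8.06 and 7.61 and PD0325901 libraries 17.6, 16.9, 16.4 and 18.4. Oxozeaenol libraries held 24.2, 27.3, 21.7 and 23.2 CPM, PI103+oxozeaenol libraries 14.6, 17.1, 14.2 and 14.8, and PI103+PD0325901 libraries 9.03, 9.78, 9.68 and 11.3. Only the oxozeaenol group overlapped control, and the 8 libraries with PI103 alone or with PI103+PD0325901 were the lowest. PDK1 fell by 1.68 on the log2 scale with PI103 (SE 0.091, adjusted p = 2.96e-13), by 0.62 with PD0325901, by 0.82 with PI103+oxozeaenol and by 1.43 with PI103+PD0325901. Its value with oxozeaenol was -0.15 ± 0.0874 (SE, adjusted p = 0.156).

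PDK2 libraries held 12.6, 11, 10.6 and 10.4 CPM in control, 28.5, 28.4, 28.7 and 26.3 with PI103 and 19.3, 21.9, 18.9 and 17.7 with PD0325901. They held 15.2, 13.9, 15.5 and 15.7 CPM with oxozeaenol, 23.4, 18.8, 21.1 and 20.5 with PI103+oxozeaenol and 30.9, 27.9, 26.2 and 24 with PI103+PD0325901. All treated libraries exceeded the highest control library. PDK2 rose by 1.33 ± 0.0916 (SE, adjusted p = 1.35e-11) with PI103, 0.80 ± 0.0912 (SE, adjusted p = 3.71e-08) with PD0325901, 0.43 ± 0.0916 (SE, adjusted p = 0.000302) under oxozeaenol, 0.91 ± 0.0913 (SE, adjusted p = 5.84e-09) with PI103+oxozeaenol, and 1.29 ± 0.0916 (SE, adjusted p = 6.65e-12) with PI103+PD0325901. SAMD14 covers 38.6% of PDK2 exon bases on the opposite strand, and it reached at most 0.0284 CPM. PDK3 rose with PI103 (0.45) and PD0325901 (0.55). Its rise with PI103+PD0325901 (0.28) was lost without control replicate 1, 2 or 4 or replicate 2, 3 or 4 of the group, at adjusted p up to 0.143.

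In the pentose phosphate pathway the gene of the endoplasmic reticulum enzyme rose in all 5 treatments. Of the 7 genes, 28.6% were called lower with PI103, 42.9% with PD0325901 and 0% with oxozeaenol, beside 25.2%, 29.9% and 26.1% of all genes. With PI103+oxozeaenol 28.6% and with PI103+PD0325901 57.1% were lower, beside 27.9% and 32.6%. The shares with PI103 and PI103+oxozeaenol were thus near the background. Called higher were 14.3% in each treatment except PD0325901 (28.6%), beside 25.7% to 32.2% of all genes. H6PD carries out the opening oxidative steps inside the endoplasmic reticulum. Its libraries held 31.9, 33.2, 30.9 and 33.1 CPM in control, 53.9, 54.3, 57.4 and 64.2 with PI103 and 51.5, 59.6, 39.6 and 49.4 with PD0325901. They held 41.3, 33.6, 40 and 45.2 CPM with oxozeaenol, 58.7, 48.1, 60 and 61.1 with PI103+oxozeaenol and 79.4, 72.1, 66.8 and 69.8 with PI103+PD0325901. Every treated library lay above every control library, though oxozeaenol replicate 2 did so narrowly. H6PD rose by 0.83 ± 0.106 (SE, adjusted p = 3.64e-07) with PI103, 0.63 ± 0.105 (SE, adjusted p = 1.3e-05) with PD0325901, 0.82 ± 0.106 (SE, adjusted p = 3.4e-07) with PI103+oxozeaenol and 1.16 ± 0.106 (SE, adjusted p = 6.27e-10) with PI103+PD0325901. The rise with oxozeaenol (0.31) was lost without replicate 4 of that group (adjusted p = 0.0741).

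RPIA converts ribulose 5-phosphate to ribose 5-phosphate. Its control libraries held 43.7, 43.3, 39.7 and 41.7 CPM, PI103 libraries 33.3, 37.3, 34.2 and 34.3 and PD0325901 libraries 26.9, 17.2, 29 and 26.7. Oxozeaenol libraries held 41.5, 39.7, 46.4 and 27.1 CPM, PI103+oxozeaenol libraries 34.4, 39.9, 37.5 and 33.7, and PI103+PD0325901 libraries 23.7, 13.4, 23.9 and 22.9. The groups with PD0325901 lay wholly below control, and replicate 2 was the lowest library in both. RPIA fell by 0.75 with PD0325901 (SE 0.161, adjusted p = 0.000302) and by 1.00 with PI103+PD0325901 (SE 0.162, adjusted p = 8.4e-06). Values with PI103 (-0.28), oxozeaenol (-0.12) and both together (-0.21) were not called, although all PI103 libraries lay below control.

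TKT, the transketolase of the non-oxidative branch, fell with PI103+oxozeaenol (-0.45) and with PI103+PD0325901 (-0.80 ± 0.111 (SE, adjusted p = 6.18e-07)). The TKT call with PI103 (-0.29) was lost without control replicate 1 or 3 or PI103 replicate 1, 3 or 4, at adjusted p up to 0.0981. That with PD0325901 (-0.33) was lost without control replicate 3 or PD0325901 replicate 2, at up to 0.0566. With oxozeaenol TKT stood at -0.25 (adjusted p = 0.0624), and at an adjusted p of 0.0246 with the batch as a block. RPE, the epimerase, fell with PI103 (-0.38) and both combinations (-0.27 and -0.38). Its call with PD0325901 (-0.20) was lost without control replicate 2 or 3 or PD0325901 replicate 1 or 2, at up to 0.236. KANSL1L covers 23.8% of RPE exon bases on the opposite strand and stood at 2.07 to 6.74 CPM. PGD, which makes ribulose 5-phosphate and NADPH, fell in 1 treatment, PI103+PD0325901 (-0.31 ± 0.0854 (SE, adjusted p = 0.00263)). TALDO1, the transaldolase, was called higher with PD0325901 (0.24), a call lost without control or PD0325901 replicate 3 (up to 0.131). PGLS values ran from -0.20 to 0.17.

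The balance between forms of the same enzyme was followed as the log2 ratio of their counts within a library, which does not depend on how libraries are scaled. Exact two-sided permutation tests of 4 against 4 libraries can give no p below 0.0286. Of 40 ratio tests, 23 reached it, each at a Benjamini-Hochberg adjusted p of 0.0497. At least 23 of the 40 must reach it for any to pass, so the calls stood or fell together. Among the 40 was the ratio of ENO2 to ENO1 in each treatment. ENO2 had at most 6 counts in any library, so this ratio rests largely on the 0.5 added to each count. None of its tests reached the smallest p (exact p of 0.143 to 0.543). They still count in the adjustment and raise the number of tests that must reach it. All 23 were lost without control replicate 1, 2 or 4 (adjusted p of 0.0519 to 0.0994), and those with PI103, oxozeaenol or PI103+oxozeaenol also whichever replicate of their own group was left out. Each kept its direction in all of these fits. With the batch as a block all were lost too, where no exact p below 0.125 is possible. The LDHB to LDHA ratio rose in all 5 treatments, from -0.70 ± 0.06 in control (SD, n = 4) to -0.10 ± 0.09 with PI103, 0.31 ± 0.17 with PD0325901, 0.31 ± 0.09 under oxozeaenol, 0.32 ± 0.08 with PI103+oxozeaenol and 0.59 ± 0.19 with PI103+PD0325901. The HK2 to HK1 ratio fell by 2.26 with PI103 and by 2.33 with PD0325901. With both agents the difference was -2.98. Its differences of -0.62 and -0.74 in the groups with oxozeaenol gave an exact p of 0.0571 each. ALDOC against ALDOA fell by 0.89 with PI103 and rose by 1.69 with PD0325901, by 1.38 under oxozeaenol, 0.64 with PI103+oxozeaenol and 1.01 with PI103+PD0325901. SLC2A3 against SLC2A1 rose by 0.59 to 1.68 in the 4 treatments other than PI103, where the difference was 0.25 (exact p = 0.171). PFKP against PFKL fell by 0.72 to 1.17 in the same 4 treatments and differed by 0.04 with PI103. PFKM against PFKL fell by 0.55 with PI103 and by 0.55 with PI103+oxozeaenol, and no test of SLC16A3 against SLC16A1 reached the threshold.

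**Figure D3:**
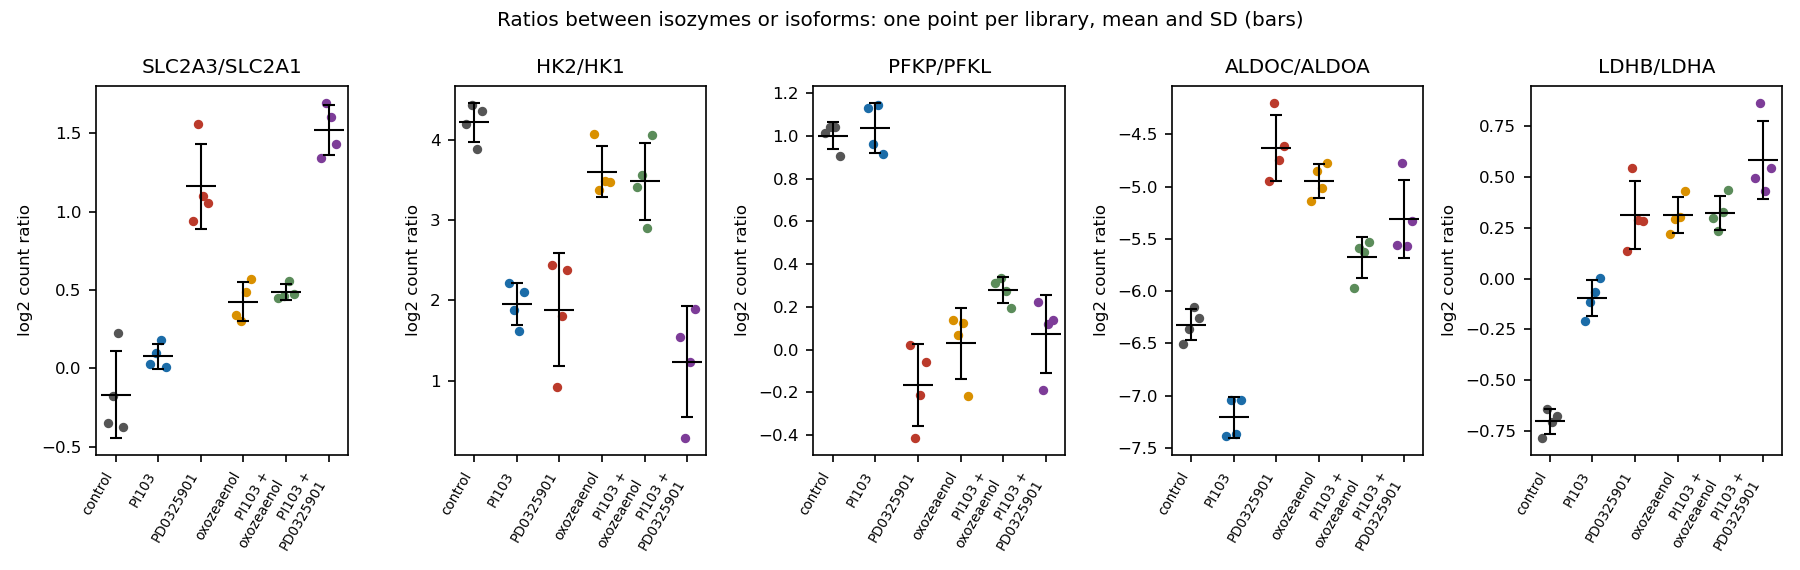
Log2 ratio of counts between 2 forms of an enzyme or transporter in each library (points, 4 per group), with the mean and SD (bars), for 5 gene pairs. In every treated group the LDHB to LDHA ratios lie above the control ratios, which run from -0.79 to -0.64, and ALDOC to ALDOA ratios lie below control with PI103 and above it elsewhere.

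The single agents were also compared with each other. PI103 and PD0325901 differed in 18 of 33 members, 9 in each direction, where 44.5% of all genes tested differed. PI103 and oxozeaenol differed in 20, beside 43.1%, with 11 higher and 9 lower under PI103. Oxozeaenol and PD0325901 differed in 14, beside 28.5% of all genes, and none of the 14 reached 1 in size on the log2 scale. The latter count was 9 without PD0325901 replicate 2 or without oxozeaenol replicate 2 or 4. The largest difference was ALDOC, lower with PI103 than with PD0325901 by -2.70 (SE 0.171, adjusted p = 6.2e-12) and than with oxozeaenol by -2.26 (SE 0.17, adjusted p = 1.59e-10). PDK1 was lower with PI103 than with PD0325901 (-1.06) or oxozeaenol (-1.53), while PFKP (1.12 and 0.97) and SLC2A1 (1.27 and 0.84) were higher with PI103. The libraries of the groups did not overlap in any of these 8 differences. Between oxozeaenol and PD0325901 the clearest difference besides HK1 was PDK1, higher with oxozeaenol by 0.48 (SE 0.0881, adjusted p = 0.000312), and HK2 was higher with oxozeaenol by 0.73 with overlapping libraries. The agents were given at 1 concentration each, and those concentrations differ.

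Combinations were compared with each of their agents at its full concentration. PI103+oxozeaenol differed from PI103 in 10 members (2 higher, 8 lower) beside 18.3% of all genes tested, and from oxozeaenol in 6 (3 higher, 3 lower) beside 14.9%. The latter count was 12 with the batch number as a block and 11 without oxozeaenol replicate 1. Relative to PI103 alone, ALDOC was higher by 1.29 and PDK1 by 0.87, and HK1 (-1.33) and SLC2A1 (-0.69) were lower, with no overlap of libraries. Relative to oxozeaenol alone, ALDOC (-0.97) and PDK1 (-0.67) were lower and H6PD (0.51) and PDK2 (0.48) higher. ALDOC and PDK1 in this combination thus lay between the levels of its agents.

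PI103+PD0325901 differed from PI103 in 17 members (5 higher, 12 lower) beside 38.7%, and from PD0325901 in 18 (3 higher, 15 lower) beside 18.1%. Members below both agents, each by a called difference, included HK2 (-0.95 against PI103 and -0.85 against PD0325901), LDHA (-0.70 and -0.61), PKM2 (-0.74 and -0.41) and TKT (-0.51 and -0.47). GAPDH (-0.34 and -0.41) and ALDOA (-0.39 and -0.50) were also below both. H6PD was above PD0325901 by 0.53 and above PI103 by 0.33, the latter call lost without PI103 replicate 1 or 2 or replicate 1 of the combination, at adjusted p up to 0.0562. ALDOC lay between its agents, 1.53 above PI103 and -1.18 against PD0325901.

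With each agent at 50% in the mixtures, the log2 effects of the single agents, averaged, are a reference that would hold if effects were linear in concentration. PI103+PD0325901 departed from this mean in 17 of 33 members, 15 lower and 2 higher, where 22.0% of all genes tested departed. The members below the mean were SLC2A1 (-0.78 ± 0.131 (SE, adjusted p = 0.000167)), HK2 (-0.90 ± 0.161 (SE, adjusted p = 0.000418)), LDHA (-0.65 ± 0.119 (SE, adjusted p = 0.000415)), PKM2 (-0.57), ENO1 (-0.54), TKT (-0.49), RPIA (-0.49), ALDOA (-0.45), GAPDH (-0.38), GPI (-0.37), SLC16A3 (-0.35), PFKP (-0.34), TPI1 (-0.31), PGD (-0.29) and PDK1 (-0.28). H6PD lay above the mean (0.43 ± 0.0892 (SE, adjusted p = 0.00144)), as did PDK2 (0.23). Several of these calls rested on single libraries. PDK2 was lost in 8 of 12 fits that left out 1 library of the 3 groups, at adjusted p up to 0.179 without combination replicate 1, the other fits being those without combination replicate 2, PI103 replicate 1, 2 or 4 or PD0325901 replicate 1, 3 or 4. RPIA was lost without combination replicate 2 (0.099), PDK1 without combination replicate 1 (0.0537), PFKP without combination replicate 2 or 4 (up to 0.128) and GPI without the same replicates (up to 0.0543). PI103+oxozeaenol departed from the mean in 1 member, HK1 (-0.80 ± 0.228 (SE, adjusted p = 0.0453)), beside 3.98% of all genes, in 4 with the batch as a block and in 3 without oxozeaenol replicate 4. The HK1 call was lost in 8 of 12 such fits (without PI103 replicate 2 or 3, oxozeaenol replicate 1, 2 or 3, or combination replicate 1, 2 or 4), at adjusted p up to 0.2.

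**Figure D4:**
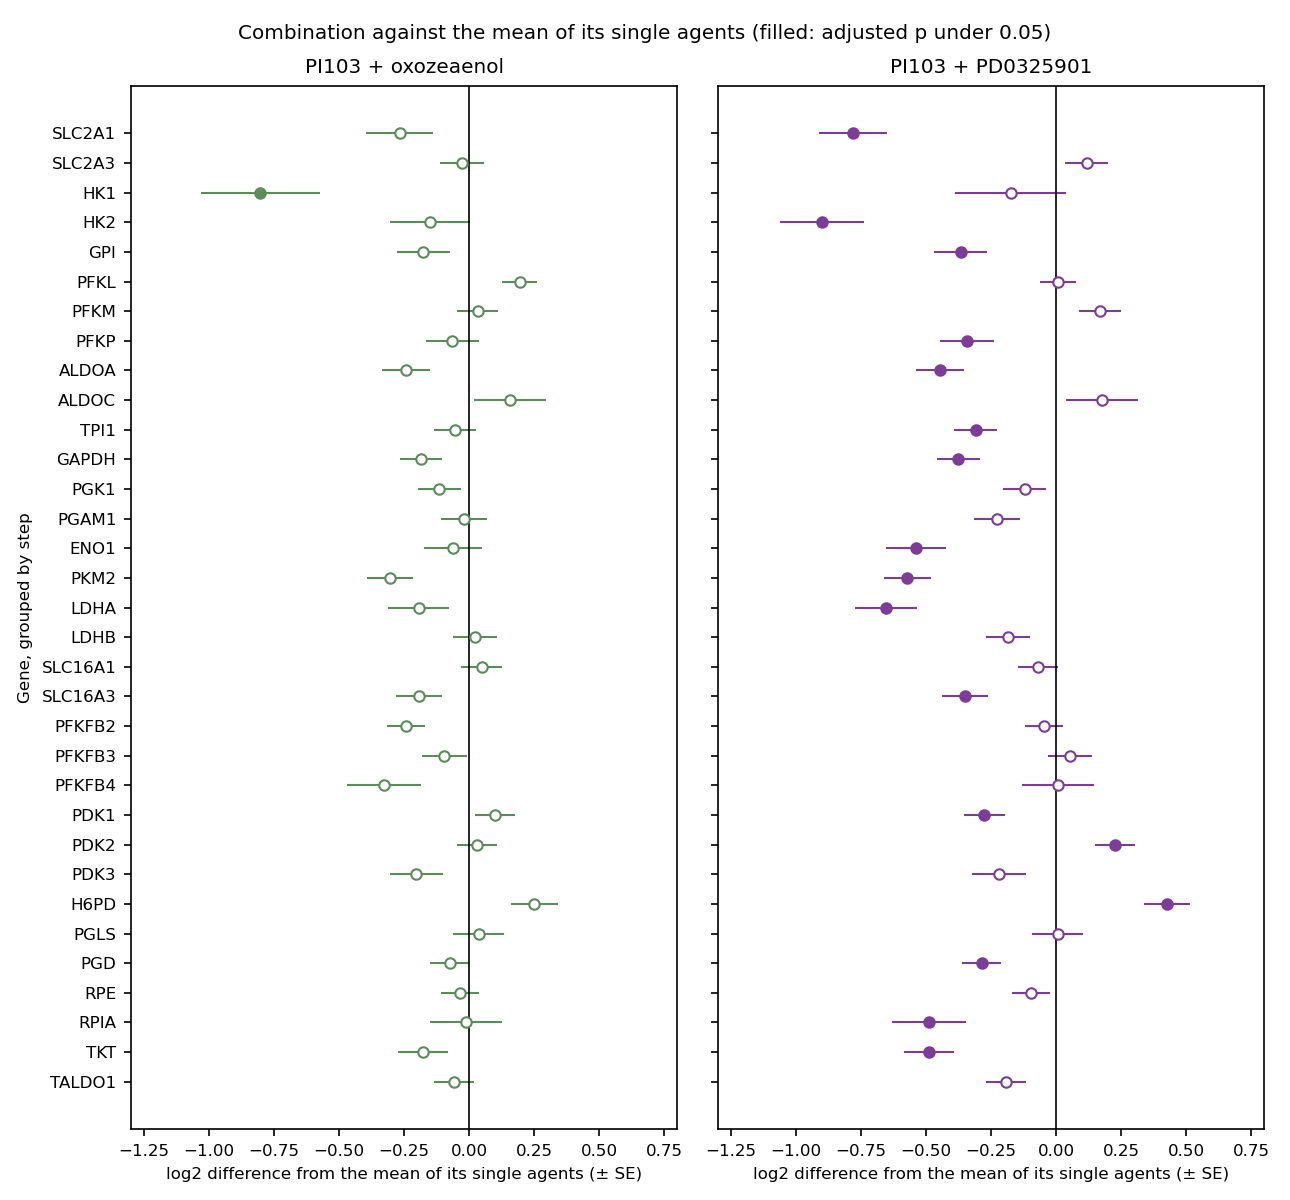
Log2 difference of each combination from the mean of its single agents for the 33 tested genes (points, with the SE as bars), filled where the adjusted p is under 0.05. With PI103+PD0325901 the filled points lie left of 0 for 15 genes, down to -0.90 for HK2, and right of 0 for PDK2 and H6PD, and with PI103+oxozeaenol HK1 is the only filled point.

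Genes next to these pathways were followed from 9 further lists. Among 6 tested sugar transporter genes outside the members, 3 or 4 were called higher in each treatment, beside 25.7% to 32.2% of all genes tested, and SLC2A8 was called lower with PI103. SLC2A12 (GLUT12) rose from 2.57 ± 0.599 CPM in control to 12.8 ± 2.39 with PI103 (2.31 ± 0.207 (SE, adjusted p = 1.36e-09)), and SLC2A10 (GLUT10) from 6.81 ± 0.838 to 21.3 ± 7.92 with PD0325901 (1.64 ± 0.174 (SE, adjusted p = 1.7e-08)). Among 10 tested side genes of glycolysis, 5 fell and none rose with PI103, where 25.2% of all genes were called lower and 26.2% higher. The hexokinase-like gene HKDC1 stood at 4.65, 4.12, 2.83 and 4.97 CPM in control, 0.0922, 0.0347, 0.103 and 0.0969 with PI103 and 6, 20.8, 5.22 and 5.88 with PD0325901. Its log2 fold change of -5.62 with PI103 rests on a few counts per library. With PD0325901 its value was 1.19 (adjusted p = 0.0486), with 1 library at 20.8 CPM and the others at 5.22 to 6. C12orf5 (TIGAR, a fructose bisphosphatase) fell with PI103 (-0.85) and both combinations.

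At the entry of pyruvate into mitochondria, 4 of 10 genes fell with PI103 and 5 with PI103+PD0325901, beside 25.2% and 32.6% of all genes tested. In each, 1 gene rose, beside 26.2% and 32.2%. The pyruvate carrier gene BRP44L (MPC1) fell by 0.95 with PI103 (SE 0.14, adjusted p = 3.56e-06), and PDHA1, a subunit of pyruvate dehydrogenase, by 0.68 with PI103+PD0325901 (SE 0.0856, adjusted p = 1.55e-07). In the glycogen list 8 of 9 tested genes were called with PD0325901, 5 higher and 3 lower, beside 28.7% and 29.9% of all genes, so that the share called lower was near the background. PGM1, which links glucose 6-phosphate to glycogen, went from 119, 108, 120 and 118 CPM in control to 416, 511, 426 and 407 with PD0325901 (1.92 ± 0.105 (SE, adjusted p = 1.32e-13)) and 439, 579, 393 and 389 with PI103+PD0325901 (1.95 ± 0.105 (SE, adjusted p = 6.99e-14)). Those libraries held at least 389 CPM, where control held at most 120. GYG1, the glycogen primer, fell with PI103 (-0.87).

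All 5 genes of the hexosamine branch were called in every treatment, 4 lower and PGM3 higher, the same split in all 5. Of all genes tested, 51.4% to 64.8% were called, 25.2% to 32.6% lower and 25.7% to 32.2% higher. GFPT1, its entry enzyme, fell from 390 ± 14.7 CPM to 167 ± 18.5 with PI103 (-1.22 ± 0.121 (SE, adjusted p = 6.26e-09)), and UAP1, its last enzyme, fell by 0.76 to 0.94. PRPS1, which turns ribose 5-phosphate into PRPP, fell by 0.73 with PI103+PD0325901 (SE 0.0872, adjusted p = 6.71e-08), and PRPS2 rose by 0.35 with PI103+oxozeaenol. BSG, the chaperone of MCT1 and MCT4, rose by 0.35 to 0.42 in all treatments except oxozeaenol, where it stood at 0.21.

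Of 10 tested hypoxia pathway genes outside glycolysis, 3 were called higher and 4 lower with PI103, beside 26.2% and 25.2% of all genes, so that the share called higher was near the background. With PD0325901 6 were higher and 1 lower, beside 28.7% and 29.9%. VEGFA, a secreted growth factor of that pathway, fell in all 5 treatments, with control libraries at 222, 259, 203 and 260 CPM and PI103 libraries at 29, 27.3, 25 and 29.9 (-3.09 ± 0.165 (SE, adjusted p = 5.82e-13)). NDRG1, a hypoxia-induced gene, rose with PI103 (1.51 ± 0.141 (SE, adjusted p = 2.26e-09)). The paralogues TXNIP and ARRDC4, which restrain glucose uptake and follow glucose 6-phosphate through the sensor proteins MLXIP and MLX, both fell in all 5 treatments. TXNIP libraries held 442, 500, 415 and 489 CPM in control, 158, 126, 149 and 128 with PI103, 117, 52.9, 52.1 and 40.6 with PD0325901 and 47.3, 70.1, 39.9 and 37.6 under oxozeaenol. No treated library exceeded 158 CPM, where the lowest control library held 415. The log2 fold change of TXNIP was -3.24 ± 0.242 (SE, adjusted p = 1.86e-10) with oxozeaenol, its largest, and -1.72 with PI103, its smallest, and ARRDC4 fell by 1.11 to 1.85.

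**Figure D5:**
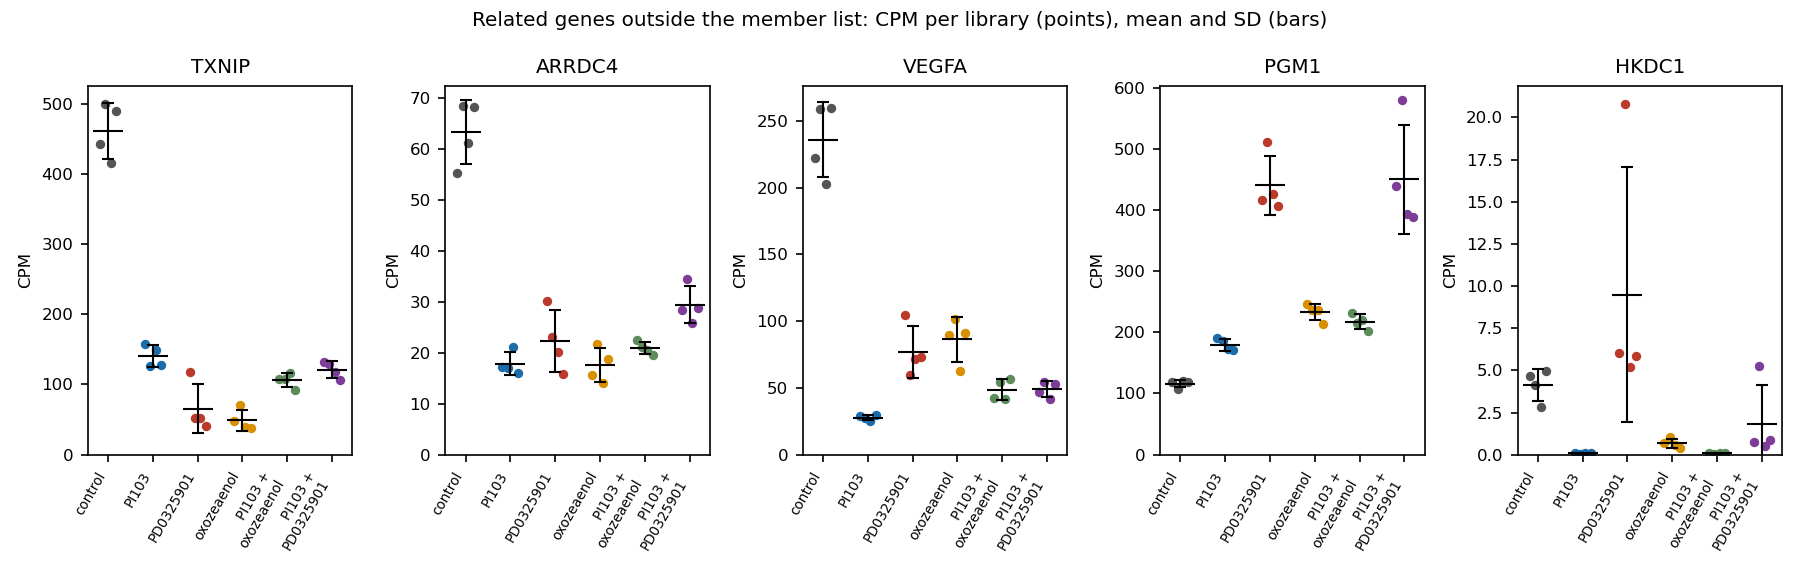
CPM per library (points, 4 per group), with the mean and SD (bars), for 5 related genes outside the member list. TXNIP, ARRDC4 and VEGFA lie below control in every treated library, PGM1 above it, and 1 PD0325901 library of HKDC1 at 20.8 CPM stands apart from the rest of its group.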

How the data were processed

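The authors deposited a table of whole-number read counts per gene symbol for all 24 libraries, made per the labels' protocols with a stranded mRNA kit from 0.8 µg of total RNA. The genome build is GRCh38 per the submitters' processing notes, and the aligner, counting program, strand setting and annotation are not given in the sources used here. Tallies of unassigned reads stayed out of library sizes (no feature 4.24% to 8.57%, not unique 4.64% to 6.06%, ambiguous 1.57% to 2.01% of reads). Groups came from sample titles, because the treatment field numbers the compound names upward in later replicates.

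Genes kept by filterByExpr entered edgeR 4.0.16 (R 4.3.3) with TMM scaling (robust estimateDisp and glmQLFit, 1 coefficient per group), giving a common biological coefficient of variation of 0.131. Each of 14 contrasts was tested two-sided by glmQLFTest with Benjamini-Hochberg adjustment over all genes tested. SE is the size of the log2 fold change over the root of its F statistic. Ratios added 0.5 to each count. The script was tested on simulated data. Libraries of the same batch number pair by the labels, and over 60 pairs from different groups their deviations had a mean correlation of 0.12 (47 positive), beside -0.0394 over 180 other pairs. The main fit left this pairing out, because the study methods used here name no block. With the batch as a block, 32 of 462 member values gained a call and 0 lost one. No libraries of a group agreed within sampling noise.

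Genes are given library by library where they reached 5 CPM in a group and a called log2 fold change of at least 1, and related genes are, per list, the 2 with the largest called changes among those that reached 5 CPM in a group and had the same sign in all 4 batches. The members and lists were chosen with earlier results of these data known. SLC2A8, PGM3, MLXIP and MLX were named after their values were seen. Exon overlaps and lengths came from GENCODE 29. Alternatives were size factors of DESeq2, DESeq2 1.42.0 itself, no filter, a replicate block, only the compared groups, a minimum change and leaving out each library.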

Additional observations from a re-analysis of the deposited data

Results flagged for a closer look

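In 12 of 198 groups of 4 libraries, 1 library stood apart from the other 3 by Dixon's criterion at the 95% level, which chance meets in about 1 of 20 groups. In control, replicate 1 held 206 CPM of PFKP (others 183 to 186) and 2960 CPM of GAPDH (others 2530 to 2590). With PI103, replicate 2 held 578 CPM of TPI1 (others 495 to 507), 358 CPM of TKT (others 270 to 283) and 214 CPM of TALDO1 (others 184 to 187), and replicate 4 held 26.3 CPM of PDK2 (others 28.4 to 28.7). With oxozeaenol, replicate 4 held 1280 CPM of PKM2 (others 1710 to 1790) and replicate 3 held 43.1 CPM of PFKFB2 (others 50.5 to 51.7). PKM2 was also low in replicate 4 with PI103 and oxozeaenol, at 1300 CPM (others 1600 to 1620). Beyond single genes, replicate 4 with oxozeaenol alone held 1.062% of its gene counts in members (others 1.303% to 1.423%). Its correlation with its own group over the tested members, 0.677 on average, was the lowest of all 24 libraries. Its share of reads in no feature, 8.57%, was the highest, next to 8.5% in replicate 4 with PI103 and oxozeaenol. With PI103 and PD0325901, replicate 2 held 19 CPM of ALDOC (others 11.5 to 12.1) and 13.4 CPM of RPIA (others 22.9 to 23.9), and replicate 1 held 516 CPM of PGK1 (others 623 to 638).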

How the results depend on the processing

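Of 114 calls of members against control, 97 held in every fit that left out 1 library, and the 17 that did not had log2 fold changes of at most 0.46 in size. No called fold change of a member turned its direction under any alternative run, and 143 values called under neither setting changed sign. The replicate block lost no call of a member and added 32 of 462 values. The counts of members called against control stayed within 1.5 times of the main count under every alternative except a required log2 change of at least 1, which left 4 (PI103), 4 (PD0325901), 3 (oxozeaenol), 3 (PI103+oxozeaenol) and 8 (PI103+PD0325901). Counts between treatments were less stable, and the cause was not tested. Oxozeaenol against PD0325901 (14) gave 7 with only the compared groups in the fit, 9 without the batch 2 libraries that received PD0325901 (an alternative chosen after seeing the data) and 9 to 16 when 1 library was left out, the lowest without PD0325901 replicate 2 or without oxozeaenol replicate 2 or 4. PI103+oxozeaenol against oxozeaenol (6) gave 12 with the replicate block, 10 with DESeq2 and 4 to 11 when 1 library was left out, the lowest without replicate 1 of the combination and the highest without oxozeaenol replicate 1. The same combination against PI103 (10) gave 16 with only the compared groups in the fit. Against the mean of its agents (1) it gave 0 without the low-count filter, 4 with the replicate block, 3 with DESeq2, 2 with only the compared groups and 0 to 3 when 1 library was left out. For the ratios, adding 5 to each count changed no call. Of 184 fits of the 23 called ratios that left out 1 library, 63 kept the call and 121 lost it (adjusted p up to 0.0994), all with the same direction, and 3 other ratios gained a call without control replicate 3. With labels exchanged only within a batch (replicate block), the exact test cannot go below 0.125, so the loss of all 23 calls there says nothing about stability.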
